A study of Mus musculus with 6 samples.

Results

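The Ebf, Nfi, Pbx3 and Zeb2 genes are a group of 8 transcription factor genes that neurons use after they leave the cell cycle: Ebf1, Ebf2, Ebf3, Nfia, Nfib, Nfix, Pbx3 and Zeb2. They were taken as every non-control probe whose platform gene symbol was one of these names, which gave 38 of the 34186 probes with a symbol and 8 of 18295 genes. The group was chosen by the null over heterozygous ratios of these same arrays, so its ratios are given as a description and carry no test.

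Expression was measured with 6 two-colour arrays in neurons sorted by green fluorescent protein (GFP) from mouse embryonic brain at E14.5, and the GFP allele sat at the Pitx3 locus in every sample. Pitx3 is a homeodomain factor of midbrain dopaminergic neurons. The heterozygous RNA came from 3 pools of Pitx3(gfp/+) neurons and the null RNA from 1 pool of Pitx3(gfp/-) neurons, whose sample name carries the suffix AK. Each pool held several embryos, and each heterozygous pool shared 2 arrays with the one null pool, in opposite dye orientations. The null RNA therefore had 1 biological sample, and the spread reported below is that of the 3 heterozygous pools alone.

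Early B-cell factors (Ebf) are helix-loop-helix proteins that bind DNA as dimers and act in neuronal differentiation and migration, and in the mouse Ebf genes are expressed by young midbrain dopaminergic neurons. Nuclear factor I proteins (Nfi) also bind DNA as dimers and take part in neuronal maturation and in the start of gliogenesis. Pbx3 is a homeodomain protein that binds DNA together with Meis and Pknox partners, and Zeb2 is a zinc finger repressor of E-box sites that also binds Smad proteins.

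Ebf3 was lower in the null RNA, with the largest mean difference among the 8 genes except where background was plainly subtracted (-0.58, against -0.64 for Nfib) or pool 3 was left out (-0.57, against -0.62), and Meis2, which encodes a DNA-binding partner of Pbx proteins, was lower by a similar size. Their promoters are shown for that reason, as RefSeq gives them on GRCm38.p6, from 250 bases before to 50 bases after the start site. The Ebf3 window is chr7:137314396-137314695 and the Meis2 window is chr2:116064570-116064869, both on the minus strand, and capitals mark any of 5 motifs searched on both strands: TAATCC for Pitx factors, TCCC and GGGA parted by any 2 bases for Ebf, TTGGCA for Nfi, TGACAG for Meis and Tgif, and CACCTG for Zeb.
Ebf3: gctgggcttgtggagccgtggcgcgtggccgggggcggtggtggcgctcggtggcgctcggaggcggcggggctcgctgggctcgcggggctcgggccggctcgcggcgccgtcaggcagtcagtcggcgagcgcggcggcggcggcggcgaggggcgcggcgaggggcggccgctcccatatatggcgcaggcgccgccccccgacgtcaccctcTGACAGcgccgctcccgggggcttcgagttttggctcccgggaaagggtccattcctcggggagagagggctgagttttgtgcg
Meis2: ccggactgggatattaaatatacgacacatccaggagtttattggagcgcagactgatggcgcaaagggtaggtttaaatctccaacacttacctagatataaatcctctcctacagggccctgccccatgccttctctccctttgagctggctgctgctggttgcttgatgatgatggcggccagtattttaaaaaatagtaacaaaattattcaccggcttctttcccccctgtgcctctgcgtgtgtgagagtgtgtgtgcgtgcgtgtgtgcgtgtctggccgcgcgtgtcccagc
In the Ebf3 window 1 match was found, a Meis and Tgif motif from 34 to 29 bases before the start site, and this motif occurs in 19.2% of the 32851 promoters of the table. The Meis2 window held 0 matches. The Pitx motif occurs in 7.06% of all promoters, the Ebf motif in 0.904%, the Nfi motif in 14.1% and the Zeb motif in 20.2%. The table holds promoters for 5 of the 8 genes, 12 windows in all. Zeb2 has an Nfi motif in 2 overlapping windows and Nfix has a Zeb motif in 1, with 0 matches to the other motifs in these 12 windows apart from the Ebf3 match given above. Each window held at most 1 match. A match is a run of letters and not a shown binding site.

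A spot was taken as well above background where its signal passed the median of the local background by over 2 of that background's SDs. Each gene is represented by its brightest probe, and a gene is called above background if that probe reached this level in one RNA on 3 or more of the 6 arrays. Per array and RNA, 47.6% to 71.4% of all genes passed this limit. Of the 8 genes, 6 were above background, and 2 were not: Ebf1 and Nfix. Among the 38 probes, 15 were above background, 11 of them on each array in both RNAs, and 18 on no array in either RNA. The sort label was set against markers of midbrain dopaminergic neurons: 11 of 14 were above background, while Th, En1 and Lmx1a were not.

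Ebf3 was the one gene above background whose null and heterozygous signals did not overlap. The log2 ratio of null over heterozygous was -0.58, -0.75 and -0.54 on the arrays of pools 1, 2 and 3 with the null RNA in Cy5, and -0.32, -0.63 and -0.54 on those with it in Cy3. All 6 arrays lay below 0, with pool 2 the lowest in both orientations. The mean was -0.56 ± 0.12 (SD, n = 3 pools). With median centring instead of loess it was -0.44 ± 0.31, and 5 of 6 arrays were below 0.

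The normalized log2 signal of Ebf3 in the null RNA ran from 11.04 over a median of 11.16 to 11.21, and in the heterozygous RNA from 11.44 over 11.74 to 11.89. Of the 8 genes, 1 had ranges that did not overlap, as did 9.03% of all 18295 genes, and in 3.80% of all genes the null range was the lower. Ebf3 and Ebf2 were the 2 of 8 genes below 0 on all 6 arrays, as were 9.27% of all genes and 12.8% of those above background. In the fit over all genes 0 of the 8 were higher and 1 was lower at an adjusted p under 0.05, which is Ebf3, against 4.96% of all genes called in either direction, 3.09% called higher and 1.87% called lower. The same contrast chose the group, so nothing is read from these counts.

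The second Ebf3 probe was dim, with a mean scanner signal of 62.9 in the null and 71.8 in the heterozygous RNA over backgrounds of 42.2 and 41.5. It too lay below 0 on all 6 arrays, at -0.20 ± 0.050. The offset of 50 used in the background correction shrinks the ratio of so dim a probe toward 0. With the background plainly subtracted this probe read -0.69 ± 0.12 and the brighter one -0.58 ± 0.17 (SD, n = 3 pools).

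**Figure D1:**
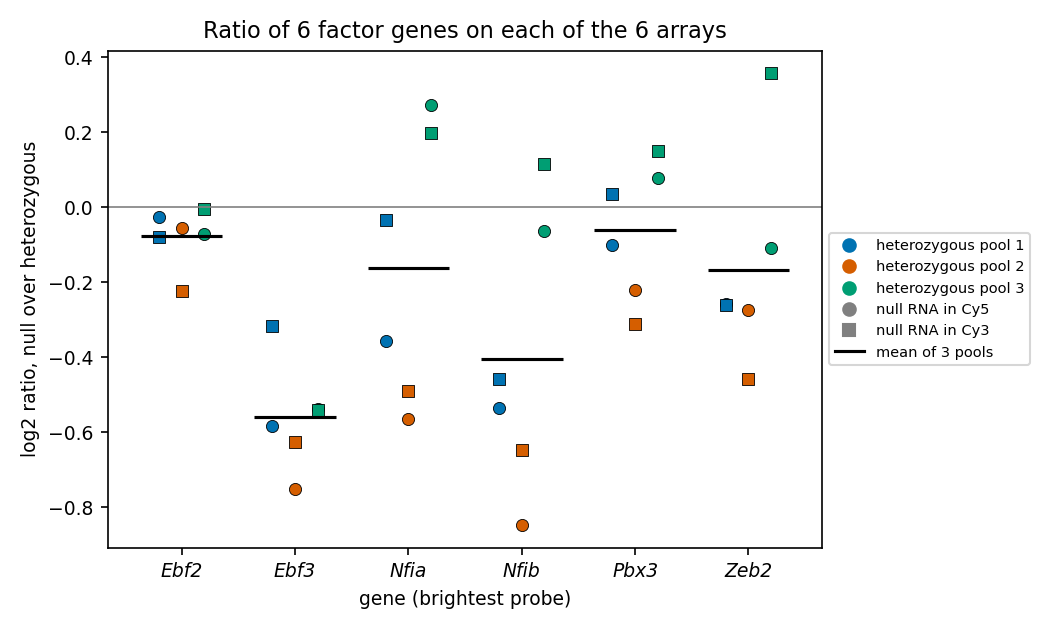
Log2 ratio of null over heterozygous (y axis) for the brightest probe of the 6 genes above background (x axis), 1 point per array, with colour for the heterozygous pool, shape for the dye of the null RNA and a bar for the mean of 3 pools. Ebf3 lies below 0 on all 6 arrays, and for Nfia, Nfib, Pbx3 and Zeb2 the pool 3 mean lies above 0.

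The other 2 Ebf genes were dim. Ebf2 had a mean scanner signal of 64.9 in the null and 67.3 in the heterozygous RNA over backgrounds of 42.7 and 41.3. Its ratio ran from -0.22 over a median of -0.06 to -0.0044, below 0 on all 6 arrays, with a mean of -0.08 ± 0.055. It was below 0 on 5 arrays in the authors' table and with uncorrected background, and on 4 with median centring. The null and heterozygous signals of Ebf2 overlapped, and its second probe above background read -0.01 ± 0.066. None of the 6 Ebf1 probes was above background, and the brightest read 51.0 and 48.1 over backgrounds of 41.2 and 40.3 and was well above background on no array, so its ratio is not described, beyond that it was above 0 on all 6 arrays, as in 10.9% of all genes. Ebf4, the remaining gene of the family, read -0.0073 ± 0.0050 and did not pass the test (adjusted p = 0.911).

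The Nfib difference was carried by 1 of its probes. On the brightest probe the ratio was -0.53, -0.85 and -0.06 for pools 1, 2 and 3 with the null RNA in Cy5, and -0.46, -0.65 and 0.12 with it in Cy3. Pools 1 and 2 were low and pool 3 was near 0, which gave a mean of -0.41 ± 0.39 (SD, n = 3 pools). The normalized log2 signal ran from 6.63 to 6.85 in the null RNA and from 6.72 to 7.50 in the heterozygous RNA, so the ranges overlapped.

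On the next 2 Nfib probes, measured on each array in both RNAs, the ratio was 0.06 ± 0.068 and 0.0055 ± 0.16. All 3 probes were measured, so the value for the gene depends on which probe stands for it. Which part of the transcript each probe reads was not stated in the labels or headers. The remaining 4 Nfib probes were not above background.

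Nfia was bright, and its pools stood on both sides of 0. The ratio was -0.36, -0.56 and 0.27 for pools 1, 2 and 3 with the null RNA in Cy5, and -0.03, -0.49 and 0.20 with it in Cy3. The mean of -0.16 ± 0.38 is smaller than the spread between pools. Its next 2 probes read -0.06 ± 0.28 and -0.01 ± 0.13, and both also had pool 3 highest, the first at 0.23 against -0.31 and -0.10 and the second at 0.07 against -0.16 and 0.06.

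Nfix, the third Nfi gene of the group, had no probe above background. Its brightest probe read 49.5 in the null and 47.3 in the heterozygous RNA over backgrounds of 41.3 and 40.3. Nfic, the remaining gene of the family, read -0.97, 0.02 and -0.17 in pools 1, 2 and 3, a mean of -0.37 ± 0.53 that did not pass (limma adjusted p = 0.454). It differed by dye, at -0.71 with the null RNA in Cy5 and -0.04 with it in Cy3. The mean over the Nfic probes above background was -0.13.

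Pbx3 had 3 probes measured on each array. On the brightest, the ratio ran from -0.31 over a median of -0.03 to 0.15, and the pool means were -0.03, -0.27 and 0.11. The mean of -0.06 ± 0.19 is smaller than the spread between pools, and the null and heterozygous signals overlapped. The other 2 probes read -0.04 ± 0.096 and -0.15 ± 0.18.

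Zeb2 read -0.26, -0.37 and 0.12 in pools 1, 2 and 3 on its brightest probe, a mean of -0.17 ± 0.26 (SD, n = 3 pools). Over the arrays the ratio ran from -0.46 over a median of -0.26 to 0.36, and the signals of both RNAs overlapped. The second Zeb2 probe above background, at 56.7 and 61.7 over backgrounds of 41.8 and 41.0, gave -0.11, -0.27 and 0.07 for the same pools. Zeb1, the other gene of the family, read -0.16 ± 0.075 with 6 of 6 arrays below 0, and did not pass (adjusted p = 0.117).

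**Figure D2:**
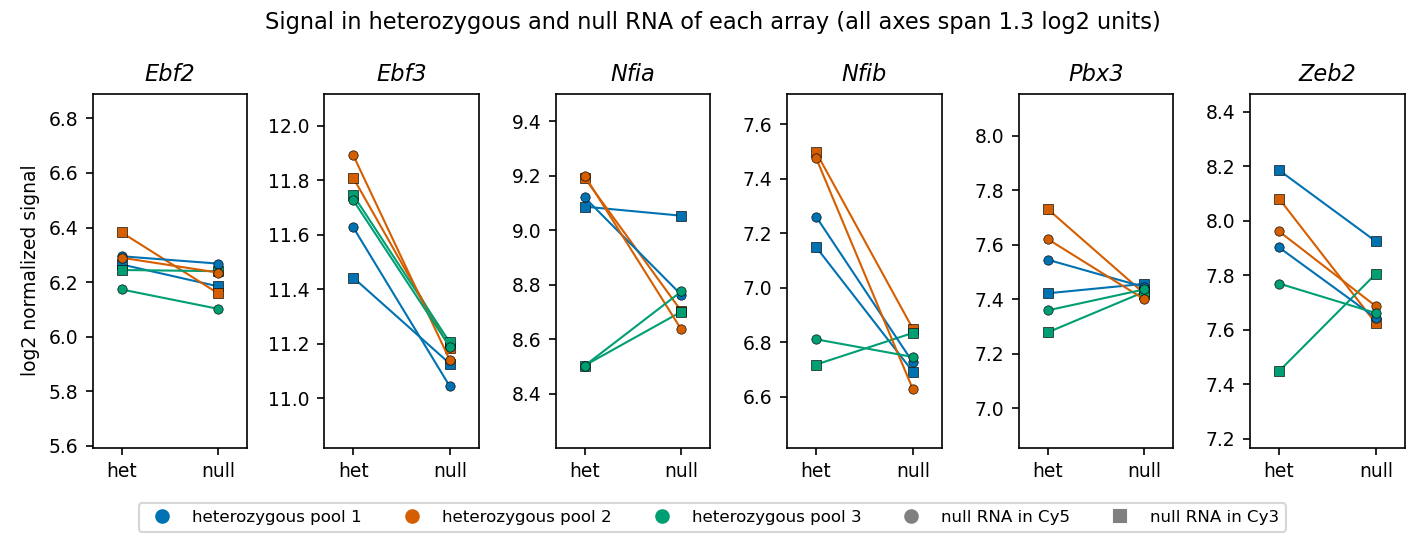
Log2 normalized signal (y axes, each spanning the same width) of the brightest probe in the heterozygous and the null RNA of each array, joined by a line, with colour for the pool and shape for the dye. The Ebf3 null values, up to 11.21, all lie under the heterozygous values, which start at 11.44, and the other 5 genes overlap.

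The pools fell in the same order for most of the group. Among the 6 genes above background, Ebf2, Nfia, Nfib, Pbx3 and Zeb2 read lowest in pool 2, then pool 1, then pool 3, an order held by 15.0% of the 12291 genes above background. Ebf3 was lowest in pool 2 and highest in pool 1. Nfia, Nfib, Pbx3 and Zeb2 were below 0 in pools 1 and 2 and above 0 in pool 3, as were 8.66% of genes above background. The arrays of pool 3 lay on both sides of 0 for Nfib, at -0.06 and 0.12, and for Zeb2, at -0.11 and 0.36. A heterozygous pool and its own labelling and hybridisations cannot be told apart here.

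In the heterozygous RNA, the normalized log2 signal of Nfia was 9.10, 9.20 and 8.50 in pools 1, 2 and 3, and that of Nfib was 7.21, 7.49 and 6.76. Pbx3 read 7.48, 7.68 and 7.32, and Zeb2 read 8.04, 8.02 and 7.61. Pool 3 was the lowest of the 3 for each of these 4 genes. They were named for their ratios in pool 3 against the shared null pool, so this is not separate from those ratios. Without pool 3, the mean ratio became -0.36 for Nfia, -0.62 for Nfib, -0.15 for Pbx3 and -0.31 for Zeb2. Without pool 2, Nfia and Pbx3 changed sign, to 0.02 and 0.04, and Nfib read -0.23 and Zeb2 -0.07.

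**Figure D3:**
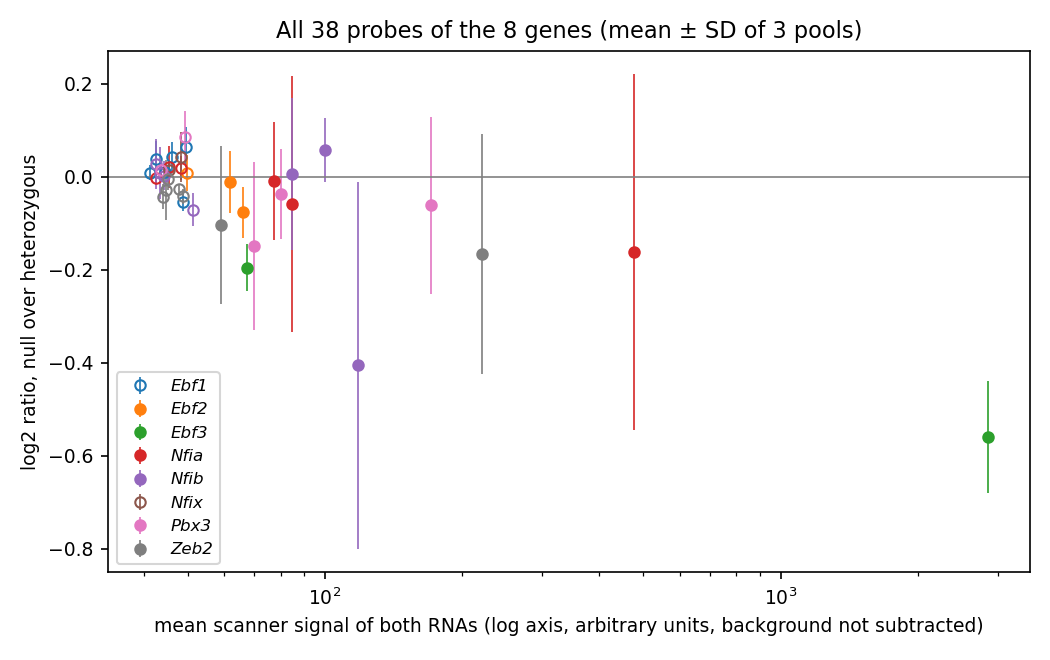
Mean log2 ratio ± SD of 3 pools (y axis) against mean scanner signal of both RNAs (log x axis, arbitrary units) for all 38 probes, coloured by gene, with open circles for probes not above background. The brightest Ebf3 probe stands at -0.56, and of the 3 Nfib probes above background 1 stands at -0.41 and 2 lie near 0.

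Of the 15 probes above background, 13 were below 0 in the mean, and the exceptions were the 2 further Nfib probes. Probes of a gene read the same RNA, and the share over all probes is not given here. The group was chosen by these ratios, so nothing is read from this count. Over the 8 genes the median log2 ratio was -0.12 ± 0.18 (SD of the 3 pools' medians), beside a median of -0.0027 over all genes, and 6 of 8 were below 0, as were 52.2% of all genes. Without pool 2 the median was -0.01, and without pool 3 it was -0.23.

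Genes that work with these factors, or resemble them, were taken as 5 lists of related genes and read in the fit over all genes, where 4.96% of all genes and 7.39% of those above background were called. Of 8 measured genes in the list of Pbx partners, which also holds Tgif genes and Pbxip1, 0 rose and 1 fell. Meis2 fell by 0.61 ± 0.082 (log2, SD, n = 3 pools; limma adjusted p = 0.0261). Its ratio was -0.60, -0.70 and -0.54 in pools 1, 2 and 3, and all 6 arrays lay between -0.77 and -0.50. The other 2 Meis2 probes read -0.47 ± 0.21, below 0 on 6 of 6 arrays, and -0.24 ± 0.24, below 0 on 4 of 6.

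The further genes of this list did not pass. Tgif2, a repressor of the same homeodomain class as Meis2, read -0.09 ± 0.18. For Meis1 and Pknox1 the heterozygous RNA passed the background limit on 3 arrays, and the null RNA on 0 and 1. Their mean ratios are therefore not given. The list median was -0.06, with 7 of 8 below 0. Among 5 measured family relatives of the 8 genes, 0 rose and 0 fell, with a median of -0.0073, and Pbx2 read 0.03 ± 0.017.

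Among 15 partner genes of Ebf and Zeb proteins, 0 rose and 0 fell, and the median was -0.0039. Smad1, a mediator of bone morphogenetic protein signals, read 0.25 ± 0.22, Zfp521, a zinc finger partner of Ebf proteins, read -0.18 ± 0.25, and Smad4, the shared Smad, read -0.14 ± 0.12. None of these differences passed the test. Of 9 reported target genes of Nfi and Zeb2, 0 rose and 0 fell, with a median of -0.0096. Ephb1, an ephrin receptor gene, read -0.27 ± 0.095 with 6 of 6 arrays below 0 (adjusted p = 0.0608), the glutamate transporter gene Slc1a3 read -0.23 ± 0.33 and the adhesion gene Cntn2 -0.05 ± 0.071.

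Among 40 other postmitotic neuronal transcription factors, 0 rose and 1 fell, with a median of -0.08 and 29 of 40 below 0. Sox11, a factor of newborn neurons, fell by 0.26 ± 0.030 (limma adjusted p = 0.0301), and 6 of 6 arrays were below 0. With median centring it read -0.13 (adjusted p = 0.633). Of its 5 further probes, 4 were above background and read -0.41, -0.18, -0.22 and -0.25. Dach1 read -0.39 ± 0.14 (adjusted p = 0.0548), Bcl11b, a zinc finger factor of several neuron types, -0.34 ± 0.15 (adjusted p = 0.0776) and Auts2 -0.34 ± 0.14 (adjusted p = 0.0696), each below 0 on all 6 arrays. None of these 3 passed, although each did in 3 of the alternatives. All calls in this comparison ended when any 1 pool was left out, where limma called 0 of 18295 genes (2956 to 3259 at an unadjusted p under 0.05). They also ended, at 0 genes called, under a trended robust variance, under median centring instead of loess, and where background was plainly subtracted.

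**Figure D4:**
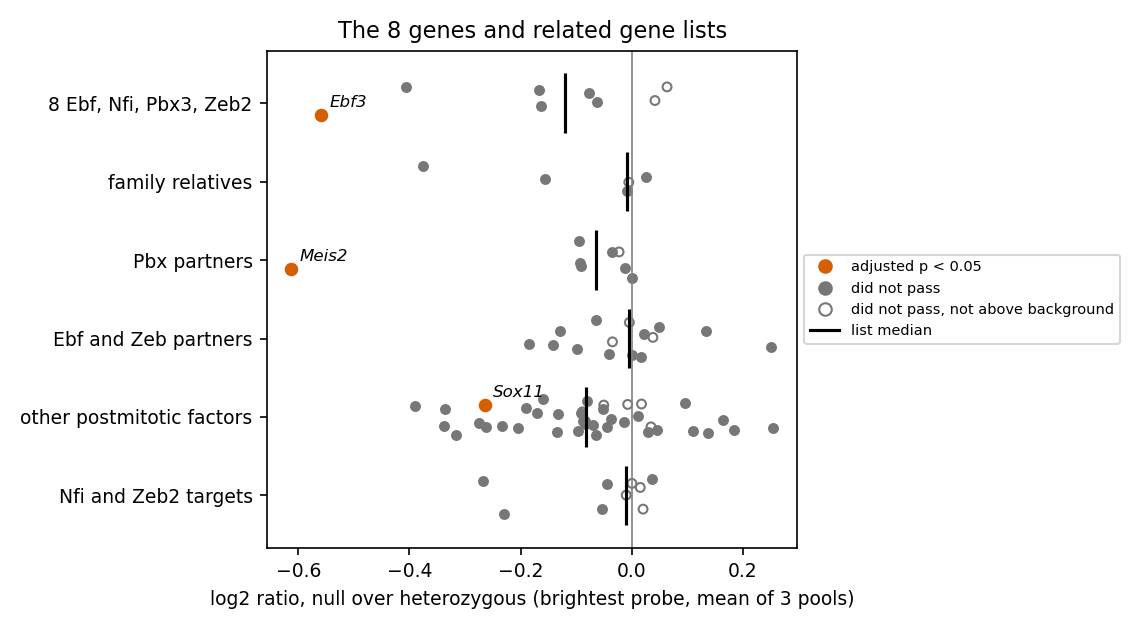
Log2 ratio of null over heterozygous (x axis, brightest probe, mean of 3 pools) of the 8 genes and of 5 lists of related genes (y axis), with a line at each list's median, orange for genes past the test and open circles for genes not above background. Meis2 at -0.61 lies beside Ebf3 at -0.56, Sox11 reads -0.26, and the list medians run from -0.12 to -0.0039.

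These are sorted populations measured in bulk, so fewer cells of a type and less RNA per cell cannot be told apart. The factors are also used by other cells of the midbrain, and markers of those cells were read in the same fit. The counts below stand beside 4.96% of all genes and 7.39% of those above background called in either direction. Of 10 GABAergic markers, 10 were above background, 1 rose and 3 fell. Gata3 read -0.33 ± 0.080, Tal1 -0.29 ± 0.060 and Lhx5 -0.24 ± 0.067, and Sox14 read 0.22 ± 0.032. In this list 9 of 10 were below 0, with a median of -0.20. The lowest mean was that of Gad1, at -0.41 ± 0.38, which did not pass. The summed normalized signal of this list ran from 1630 to 1784 in the null RNA over the 6 arrays. In the heterozygous RNA it ran from 1806 to 2113, without overlap. The sums of the general neuronal, radial glia and erythroid markers below did not overlap either, the erythroid ones narrowly, at 660.6 against 659.8. How often such sums separate for other gene lists was not computed, so nothing is read from these separations. All null values are repeats of 1 pool.

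Of 10 general neuronal markers, all above background, 0 rose and 1 fell, Elavl3 at -0.50 ± 0.14, and the summed signal ran from 2945 to 3287 in the null and from 3310 to 3599 in the heterozygous RNA. Of 12 measured markers of radial glia and progenitors, which also use Nfia and Zeb2, 0 rose and 0 fell, and 10 were above 0. Their summed signal ran from 6170 to 6610 in the null and from 4944 to 6033 in the heterozygous RNA. Of 9 markers of mesenchyme and pericytes, which use Ebf genes and Zeb2, 1 rose, Postn at 0.24 ± 0.031, and 0 fell. Most of this list went the other way, with 7 of 9 below 0 and a median of -0.0088. The sums overlapped, at 705 to 737 in the null and 707 to 725 in the heterozygous RNA. Of the 14 dopaminergic markers 0 rose and 1 fell, the dopamine transporter gene Slc6a3 at -0.42 ± 0.018 (limma adjusted p = 0.0260). Slc6a3 passed the background limit on 2 arrays in the null and on 6 in the heterozygous RNA. It thus counts as above background through the heterozygous RNA alone, which favours a ratio below 0, and its null value is near background. The summed signal of that list overlapped, at 1565 to 1852 in the null and 1658 to 2166 in the heterozygous RNA.

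Of 7 measured markers of glutamatergic and red nucleus neurons 1 rose, Pou4f1 at 0.44 ± 0.064 (limma adjusted p = 0.0262), and 0 fell. In this list 4 of 7 were below 0, with a median of -0.03. The sums were 1432 to 1713 in the null and 1441 to 1643 in the heterozygous RNA. Of 5 measured erythroid markers 1 rose, the embryonic globin gene Hbb-y at 0.37 ± 0.060 (limma adjusted p = 0.0287), and 0 fell, with sums of 661 to 749 in the null and 578 to 660 in the heterozygous RNA. Of 4 measured cholinergic and oculomotor markers 0 rose and 0 fell, with a median of -0.02. The same held for 6 measured markers each of endothelium, of microglia and macrophages, and of the oligodendrocyte and astrocyte lineage. Their medians were -0.10, -0.0048 and 0.0042, and the sums of these lists overlapped between the RNAs. The part of all these markers in the differences above was not tested.

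For the genes with a ratio of at least 0.3 in size, the genes nearest in pattern were found among the others above background by the root mean square difference of the log2 ratio over the 6 arrays, which share the null pool and come in pairs of 3 pools. Nearest to Ebf3 were Luzp1 at a difference of 0.0722, Csf2ra at 0.0894 and Chd6 at 0.100, with mean ratios of -0.57, -0.49 and -0.49. Nearest to Nfib were Adamts1 at 0.0661, Topors at 0.133 and Usp7 at 0.134, with mean ratios of -0.41, -0.44 and -0.47.

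**Figure D5:**
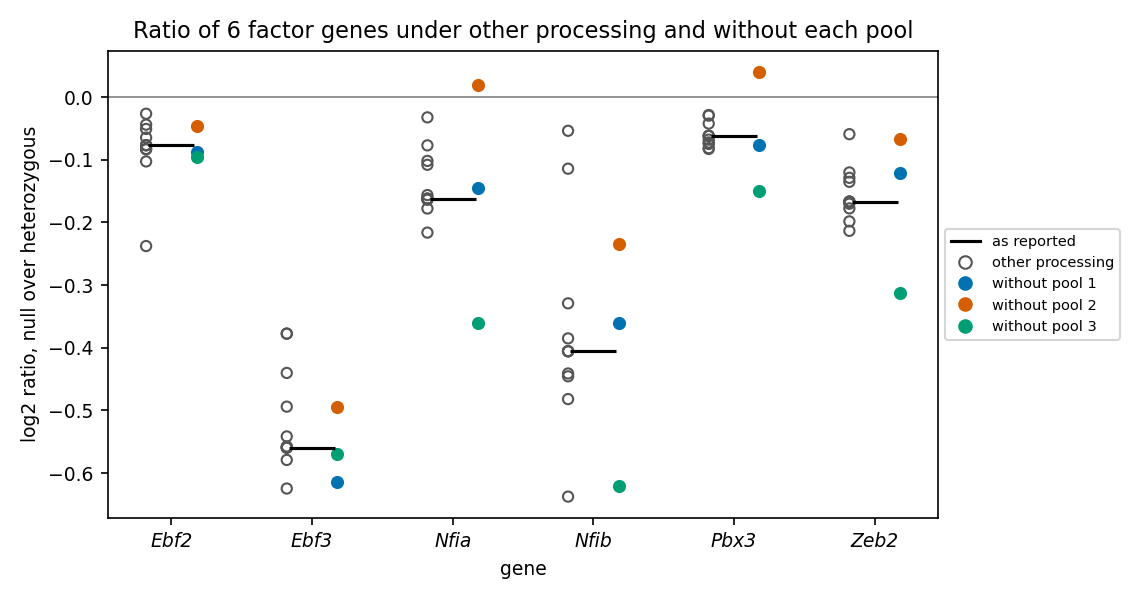
Log2 ratio of null over heterozygous (y axis) of the 6 genes above background (x axis), as reported (bar), under other processing (open circles) and without each pool (coloured points). Ebf3 stays between -0.62 and -0.38 and below 0 in every setting shown, while Nfia and Pbx3 reach 0.02 and 0.04 without pool 2.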

How the data were processed

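The 6 arrays compare 3 heterozygous pools with 1 null pool in swapped dyes. RNA went through T7 amplification before labelling, per the labels' protocols. Per the file headers, spot intensity and local background intensity were deposited as scanned. A further deposited file per array gives each dye's intensity after the authors' normalization, and the log2 values of the authors' series table are the ratio of Cy5 over Cy3, with no sign change for swapped arrays. The normalization method was not stated in the labels or headers.

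From the scanner intensities, background was corrected with normexp (offset 50), which shrinks dim ratios toward 0. Loess normalization followed within arrays, giving control spots a weight of 0. Ratios were turned to null over heterozygous, and the 2 arrays of a pool were averaged. Normalized signals of each RNA come from these ratios after Aquantile scaling and hold the offset. Symbols came from the platform annotation, updated through RefSeq names of GRCm38.p6. The ratio was tested against 0 with limma 3.58.1 in R 4.3.3 over 18295 genes, Benjamini-Hochberg adjusted, threshold 0.05, and the fit was run on simulated data. Simulated pools were drawn independently, while the real ratios share the null RNA, so the simulation does not cover that shared part. The p-values leave out the spread of null pools. The small number of arrays limits precision.

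The 8 genes, the lists and the alternatives were chosen with earlier results of these data known. The genes named were the 8 members, called genes of the related lists with up to 3 others of each list that were above background and largest in ratio, and the 3 nearest genes of members at 0.3 or more. Ebf4 and the named markers are outside that rule and were chosen after their values were seen.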

Additional observations from a re-analysis of the deposited data

Results flagged for a closer look

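Dixon's ratio was computed over the 6 arrays for 40 measures: the probes of the 8 genes that were above background, the brightest Ebf1 and Nfix probes, the named genes of the related lists and the 6 genes nearest in pattern. In 2 measures a single array stood apart. The nominal rate of about 1 in 20 is for independent values, whereas these arrays come in pairs and share the null pool, so it is not a rate for these data. For Ebf2 the pool 2 array with Cy3-labelled null RNA gave -0.22, while the other 5 spanned -0.08 to -0.0044. For Pknox1, a dim probe, the pool 3 array with Cy5-labelled null RNA gave -0.27, while the other 5 spanned -0.08 to -0.03.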

How the results depend on the processing

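The count of 908 called genes became 854 for the mean over probes, 957 with uncorrected background, 991 in the authors' table, 1070 after filtering dim probes and 1041 for the mean over probes above background (chosen after seeing the data). Arrays of one orientation gave 1029 (null in Cy5) and 674 (null in Cy3). It was 0 with plain background subtraction, 0 with median centring and 0 with the trended robust variance (3135, 2604 and 3069 genes at an unadjusted p under 0.05 in limma), 0 to 0 when leaving out each pool, and 2221 with 6 arrays, a dye term and pool as a random block. The 2 calls among the related lists, Meis2 and Sox11, were 0 in the same 3 settings and 0 to 0 without each pool, 4 after filtering dim probes, 4 for the mean over probes above background, 5 with the null RNA in Cy5 and 10 with the random block. Meis2 passed in the 8 alternatives with calls, Sox11 in 4, Ephb1 in 5, and Dach1, Bcl11b and Auts2 in 3 each. Where its call was lost, Meis2 read -0.66 to -0.53. The cause was not tested. The median ratio of the 8 genes, -0.12, lay between -0.23 and -0.01 when 1 pool was left out and between -0.19 and -0.03 otherwise. Ebf2, Ebf3, Nfib and Zeb2 stayed below 0 in every setting. Nfib read -0.05 with the mean over probes and -0.64 with plain subtraction, Ebf2 lay between -0.24 and -0.03, and Zeb2 between -0.31 and -0.06. Slide was not run as a block, since no slide is given in the files used here. Each ratio already sets null against heterozygous RNA on the same array. The heterozygous pools could not be matched to null pools of their own, since the null RNA came from 1 pool.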
